A study of Homo sapiens with 34 samples.

Results

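Cytosolic ribosomal protein genes encode the protein part of the ribosome, which in human cells has a large and a small subunit. The genes were taken by name from the deposited gene tables: every locus named RPL or RPS plus a number, with at most an ending such as A, L or X, together with RPLP0, RPLP1, RPLP2, RPSA and FAU. Names of pseudogenes and of the RPS6 kinases were left out. Of 28690 loci in the tables, 100 matched these names and 80 had a mean of at least 1 FPKM over the 24 RNA-seq libraries (FPKM, fragments per kilobase of transcript scaled to the mapped fragments of the library). These 80 members, 47 of the RPL type and 33 of the RPS type with FAU, were among 13979 loci at or above that level. The 20 loci left out comprised 18 that were listed at 0 in all 24 libraries, 15 of them copies on alternate scaffolds, and RPL10L and RPL3L, tissue-restricted copies with means of 0.303 and 0.0460 FPKM. The member nearest the limit, RPL39L, had a mean of 35.3 FPKM, so no member lay close to it.

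The cells were U2OS, an established human osteosarcoma line, stably carrying a Bmal1:luc luciferase reporter. For RNA-seq, the cells of both conditions were synchronized with dexamethasone. One culture series received 5 mM 6-aminonicotinamide (6AN), an inhibitor of the pentose phosphate pathway and so of NADPH production, and the other received the solvent DMSO (control). RNA was taken at 12 time labels from CT00 to CT44, every 4 hr, with 1 rRNA-depleted library for each label and condition, and the reporter was present in all of them. ChIP-seq of BMAL1, CLOCK, H3K4me3, H3K9ac and input chromatin was done after 24 hr, with 1 library for each target and condition.

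Relative sequencing depth, read from the step between the lowest FPKM values, spanned 0.58 to 1.31 times the median library in control and 0.70 to 1.55 times in 6AN, while absolute depth is unknown. Of 8 osteoblast lineage markers, 6 reached a mean of 1 FPKM. SPARC ran from 290 to 368 FPKM in control and from 87.2 to 185 in 6AN, and COL1A1 from 84.5 to 170 and from 13.3 to 73.8, whereas COL1A2 and SP7 stayed under 0.2 FPKM. Of 6 markers of other cell types only CD68 reached that mean, at 2.07 to 4.62 FPKM in control and 3.56 to 9.96 in 6AN. The lineage markers therefore moved with the condition, and their part in the values below was not tested. In bulk RNA, fewer cells of a type and less RNA per cell cannot be told apart.

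Ribosomal proteins are made in near-equal amounts, and most of their mRNAs begin with a 5′ terminal oligopyrimidine tract (5′TOP), a cytosine followed by a run of pyrimidines at the transcription start. This element places their translation under the mTOR pathway through the binding protein LARP1, and many elongation factor mRNAs and noncoding hosts of small nucleolar RNAs (snoRNAs) carry it as well. RefSeq start windows (GRCh38.p14) were matched to 64 of the 80 members. The deposited files use hg38, the same assembly, with no patch level given in the sources used here. A cytosine at the annotated start with at least 4 more pyrimidines was present in 47 of these 64 genes, or 73.4%, against 6.95% of 10042 other expressed genes with a window and 5.14% of all 27305 genes in the table. Beginning within 10 bases of the annotated start, such a run was found in 58 of 64 members (90.6%) and in 41.8% of the other expressed genes. In these counts and the motif counts below, a gene with several windows counted if any of them met the rule. The windows of members that the results below turn on are shown to compare their starts, 10 bases before to 20 bases from the annotated start, 5′ to 3′ on the strand of the gene. For a gene with several windows, one with the tract at the start was chosen where present. Capitals mark the pyrimidine tract, and in RPS28 the E-box CACGTG.
RPLP1, chr15:69452808-69452837, plus strand: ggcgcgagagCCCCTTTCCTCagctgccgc
RPL41, chr12:56116623-56116652, plus strand: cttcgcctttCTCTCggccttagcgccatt
RPS6, chr9:19380217-19380246, minus strand: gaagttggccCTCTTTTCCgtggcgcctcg
RPL26, chr17:8383174-8383203, minus strand: gcgtgtagttCTCTTCCCTTTTgcggccat
RPL22, chr1:6199576-6199605, minus strand: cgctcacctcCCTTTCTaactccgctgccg
RPL39, chrX:119791611-119791640, minus strand: ccgccagcttCCCTCCTCTTCCTTTCTCCg
RPS27, chr1:153990752-153990781, plus strand: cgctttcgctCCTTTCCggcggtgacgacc
RPS27L, chr15:63157458-63157487, minus strand: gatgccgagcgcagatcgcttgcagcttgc
RPS28, chr19:8321486-8321515, plus strand: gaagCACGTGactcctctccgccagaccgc
The tract was 11 bases long in RPLP1, 5 in RPL41, 9 in RPS6, 12 in RPL26, 7 in RPL22, 19 in RPL39 and 7 in RPS27. RPS27L, a paralog of RPS27, had none at its annotated start.

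The first question was whether these mRNAs changed over time within each condition. In 6AN, 67 of 80 members rose from CT00 to CT44 and none fell, whereas in control none rose and none fell (slope of log2(FPKM + 1) on time, limma, Benjamini-Hochberg adjusted p of 0.05 or less over all 13979 loci). Among all loci tested, 12.3% rose and 13.1% fell in 6AN, and 3.13% rose and 3.13% fell in control. The median slope of the members was 0.23 log2 per 24 hr in 6AN and 0.05 in control, beside 0.00 for all expressed loci in either condition. The summed FPKM of a library, which includes the members, was 1157963 at CT00 and 1281612 at CT44 in 6AN. In control it was 1089296 and 1059367. The members' share of this sum, without the erratic loci described below, went from 12.7% to 14.5% in 6AN and from 11.7% to 12.7% in control. The part of the rising sum in the 6AN slopes was not tested. Slopes were above 0 for 78 of 80 members in 6AN and 68 of 80 in control, where the median slope of all expressed loci was 0.00 in each. Members moved together between libraries, as described below, so these slopes are not independent of each other. At an unadjusted p of 0.05 or less, 3 members in control and 72 in 6AN showed a trend, against 20.7% and 37.2% of all loci, and none of these member trends was downward. By subunit, 40 of 47 RPL members and 27 of 33 others rose in 6AN.

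**Figure D1:**
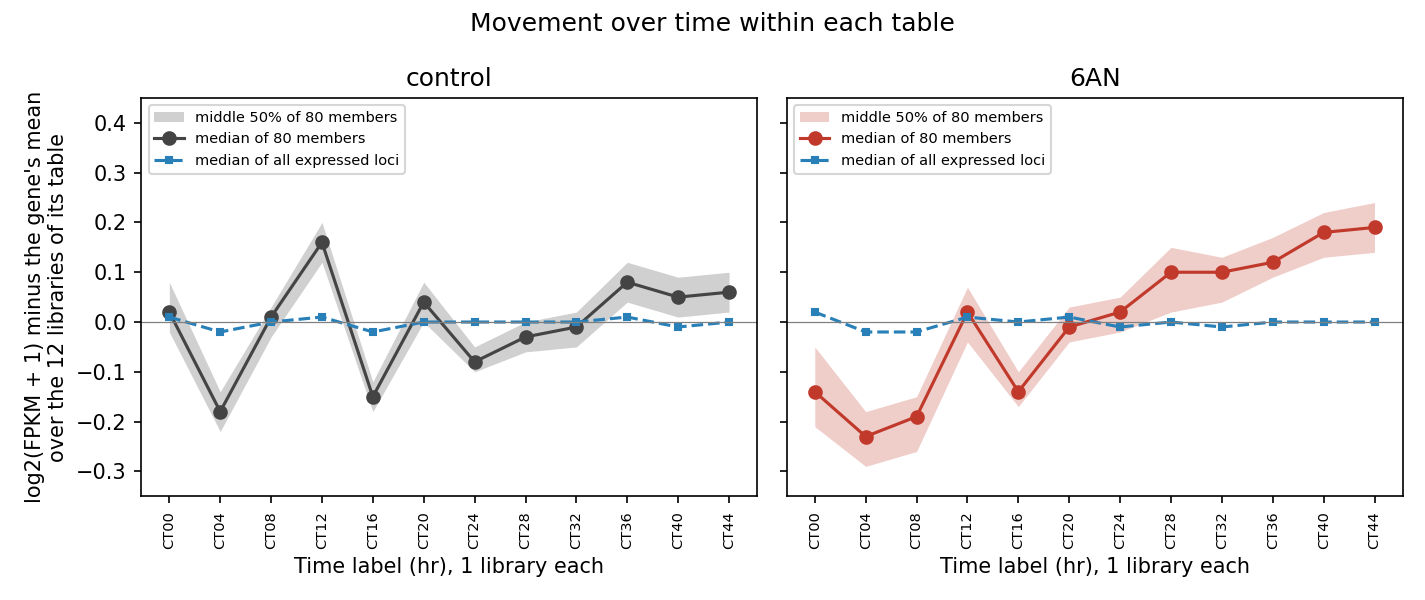
Median (points) and middle 50% (band) of the 80 members' log2(FPKM + 1) after subtracting each gene's mean over its own table, by time label, with the median of all expressed loci as a dashed line; each label is 1 library. In 6AN the member median runs from -0.23 at CT04 to 0.19 at CT44, whereas in control it stays between -0.18 and 0.16 with no steady course.

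RPL23, a protein of the large subunit, had the steepest slope of the members outside the RPL17 locus. In control its lowest, median and highest values were 1749, 2112 and 2310 FPKM, and in 6AN they were 2205, 3002 and 3685. The 6AN values climbed from 2269 at CT00 to 3685 at CT44, and only those of CT00, CT04 and CT08 overlapped the control range. Its slope was 0.43 ± 0.04 (SE) log2 per 24 hr in 6AN (limma adjusted p = 3.41e-05) and 0.14 ± 0.05 in control (adjusted p = 0.140). The other members with the smallest trend p-values in control, RPL27 and RPL15, had control slopes of 0.12 ± 0.06 (limma adjusted p = 0.240) and 0.10 ± 0.04 (adjusted p = 0.238), and both rose in 6AN, by 0.27 ± 0.04 (adjusted p = 0.000333) and 0.25 ± 0.03 (adjusted p = 0.000517).

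RPL4, whose protein lines the exit tunnel of the large subunit, went from 2641 FPKM at CT00 to 3762 at CT44 in 6AN, with a median of 3080. In control its lowest, median and highest values were 1945, 2191 and 2310 FPKM, all below the lowest 6AN value of 2477. The slope in 6AN was 0.31 ± 0.03 (limma adjusted p = 6.78e-05). RPS23, a small subunit protein of the decoding center, spanned 236 to 283 FPKM in control (median 268) and 285 to 404 in 6AN (median 346), again without overlap. Its 6AN slope was 0.28 ± 0.03 (limma adjusted p = 0.000111).

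RPS6, the small subunit protein phosphorylated by the S6 kinases, had lowest, median and highest values of 1882, 2180 and 2332 FPKM in control and of 2228, 2879 and 3526 in 6AN. The ranges overlapped at CT04 of 6AN only, and every other 6AN value was above every control value. The slope of RPS6 was 0.33 ± 0.04 in 6AN (limma adjusted p = 0.000369) and 0.05 ± 0.06 in control (adjusted p = 0.709). RPL5 and RPL11, which form the 5S ribonucleoprotein and can bind MDM2 when free, both rose. RPL5 spanned 1246 to 1539 FPKM in control and 1665 to 2411 in 6AN, with a 6AN slope of 0.28 ± 0.03 (limma adjusted p = 0.000188). RPL11 spanned 1668 to 1972 and 1978 to 2765 FPKM, with a 6AN slope of 0.24 ± 0.03 (limma adjusted p = 0.000559). In both genes the lowest 6AN library was above the highest control library.

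The stalk proteins RPLP0, RPLP1 and RPLP2, which recruit translation factors to the ribosome, differed in their trends. RPLP2 rose in 6AN by 0.21 ± 0.04 log2 per 24 hr (limma adjusted p = 0.00416). RPLP1 had a slope of 0.13 ± 0.05 (adjusted p = 0.0773), which passed the threshold when libraries were centred on the median locus and when CT12 was left out. RPLP0 had no called trend within 6AN, with a slope of 0.03 ± 0.04 (adjusted p = 0.632), although its 6AN values of 2372 to 2807 FPKM were all above its control values of 1841 to 2280. Differences between the slopes of these genes were not tested.

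The 13 members without a called trend in 6AN also included RPSA, a small subunit protein also known as the laminin receptor precursor, with a slope of 0.06 ± 0.04 (limma adjusted p = 0.361). RPS2 had 0.04 ± 0.05 (adjusted p = 0.638), RPS29 had 0.10 ± 0.06 (adjusted p = 0.212), and RPL41, the smallest ribosomal protein, had 0.12 ± 0.04 (adjusted p = 0.0674). The others were RPL17, RPL28, RPL32, RPL39L, RPS19, RPS28 and RPS3A. The slopes in 6AN were below 0 for RPL39L, at -0.16, and for RPL28, at -0.08. FAU, whose product carries the small subunit protein RPS30 fused to a ubiquitin-like domain, rose by 0.19 ± 0.04 (limma adjusted p = 0.00314) from a control level that its 6AN values overlapped (684 to 870 FPKM in control, 713 to 900 in 6AN).

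**Figure D2:**
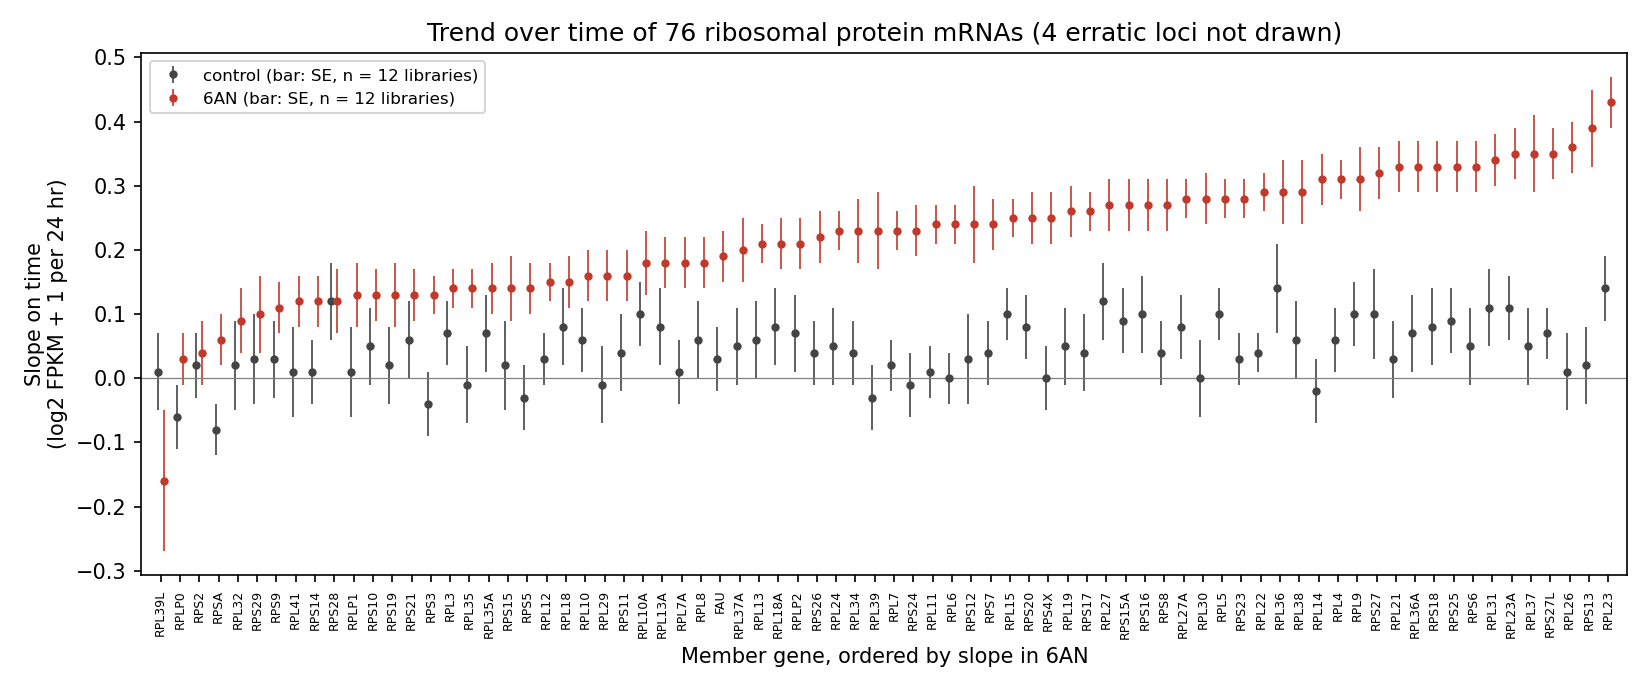
Slope on time in log2(FPKM + 1) per 24 hr for 76 members, ordered by the slope in 6AN, with control in grey and 6AN in red; bars are standard errors over 12 libraries. The 6AN slopes range from -0.16 for RPL39L to 0.43 for RPL23, and RPL17, RPL28, RPS27A and RPS3A, whose standard errors exceed 0.2, are not drawn.

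A trend called in one condition and not in the other does not show that they differ, so the difference was fitted directly, in a comparison chosen after the values were seen. Both tables entered a single limma fit with an intercept and a slope for each, so that a scaling common to a table drops out. The slope was steeper upward in 6AN for 27 of 80 members (adjusted p of 0.05 or less), against 4.04% of all loci, and steeper downward for none, against 4.81%. The median difference was 0.18 log2 per 24 hr, beside 0.00 over all expressed loci. Among the named genes past the threshold the differences were largest for RPL26, at 0.34 ± 0.07 (limma adjusted p = 0.00288), and for RPL23, at 0.29 ± 0.06 (adjusted p = 0.00400). Without CT00 the count past the threshold was 15 members, and when the values were joined by time label it was 40.

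The second question was the level in 6AN beside control. The authors normalized the tables separately, so levels are set side by side without a test. Over the 12 libraries of each table the median member was 0.36 log2 higher in 6AN than in control (log2 ratio of mean FPKM + 1, middle 50% from 0.31 to 0.46), and 76 of 80 members were higher. The median of all expressed loci was -0.04. All 12 6AN libraries were above all 12 control libraries for 26 members, or 32.5%, against 5.89% of all loci, and they were all below for none, against 10.3% of loci. By label, the median member was 0.15 to 0.39 log2 higher in 6AN from CT00 to CT20, with 0.19 at CT00, 0.33 at CT04 and 0.15 at CT08, and 0.42 to 0.50 higher from CT24 to CT44. The second day was thus above the first with no further increase within it, and how long the cells had been in 6AN at CT00 is not given in the sources used here. At CT00, 69 members were higher in 6AN, and at CT44, 77 were. Their share of the summed FPKM, without 4 erratic loci described below, was 11.1% to 12.8% in control and 12.6% to 14.5% in 6AN.

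**Figure D3:**
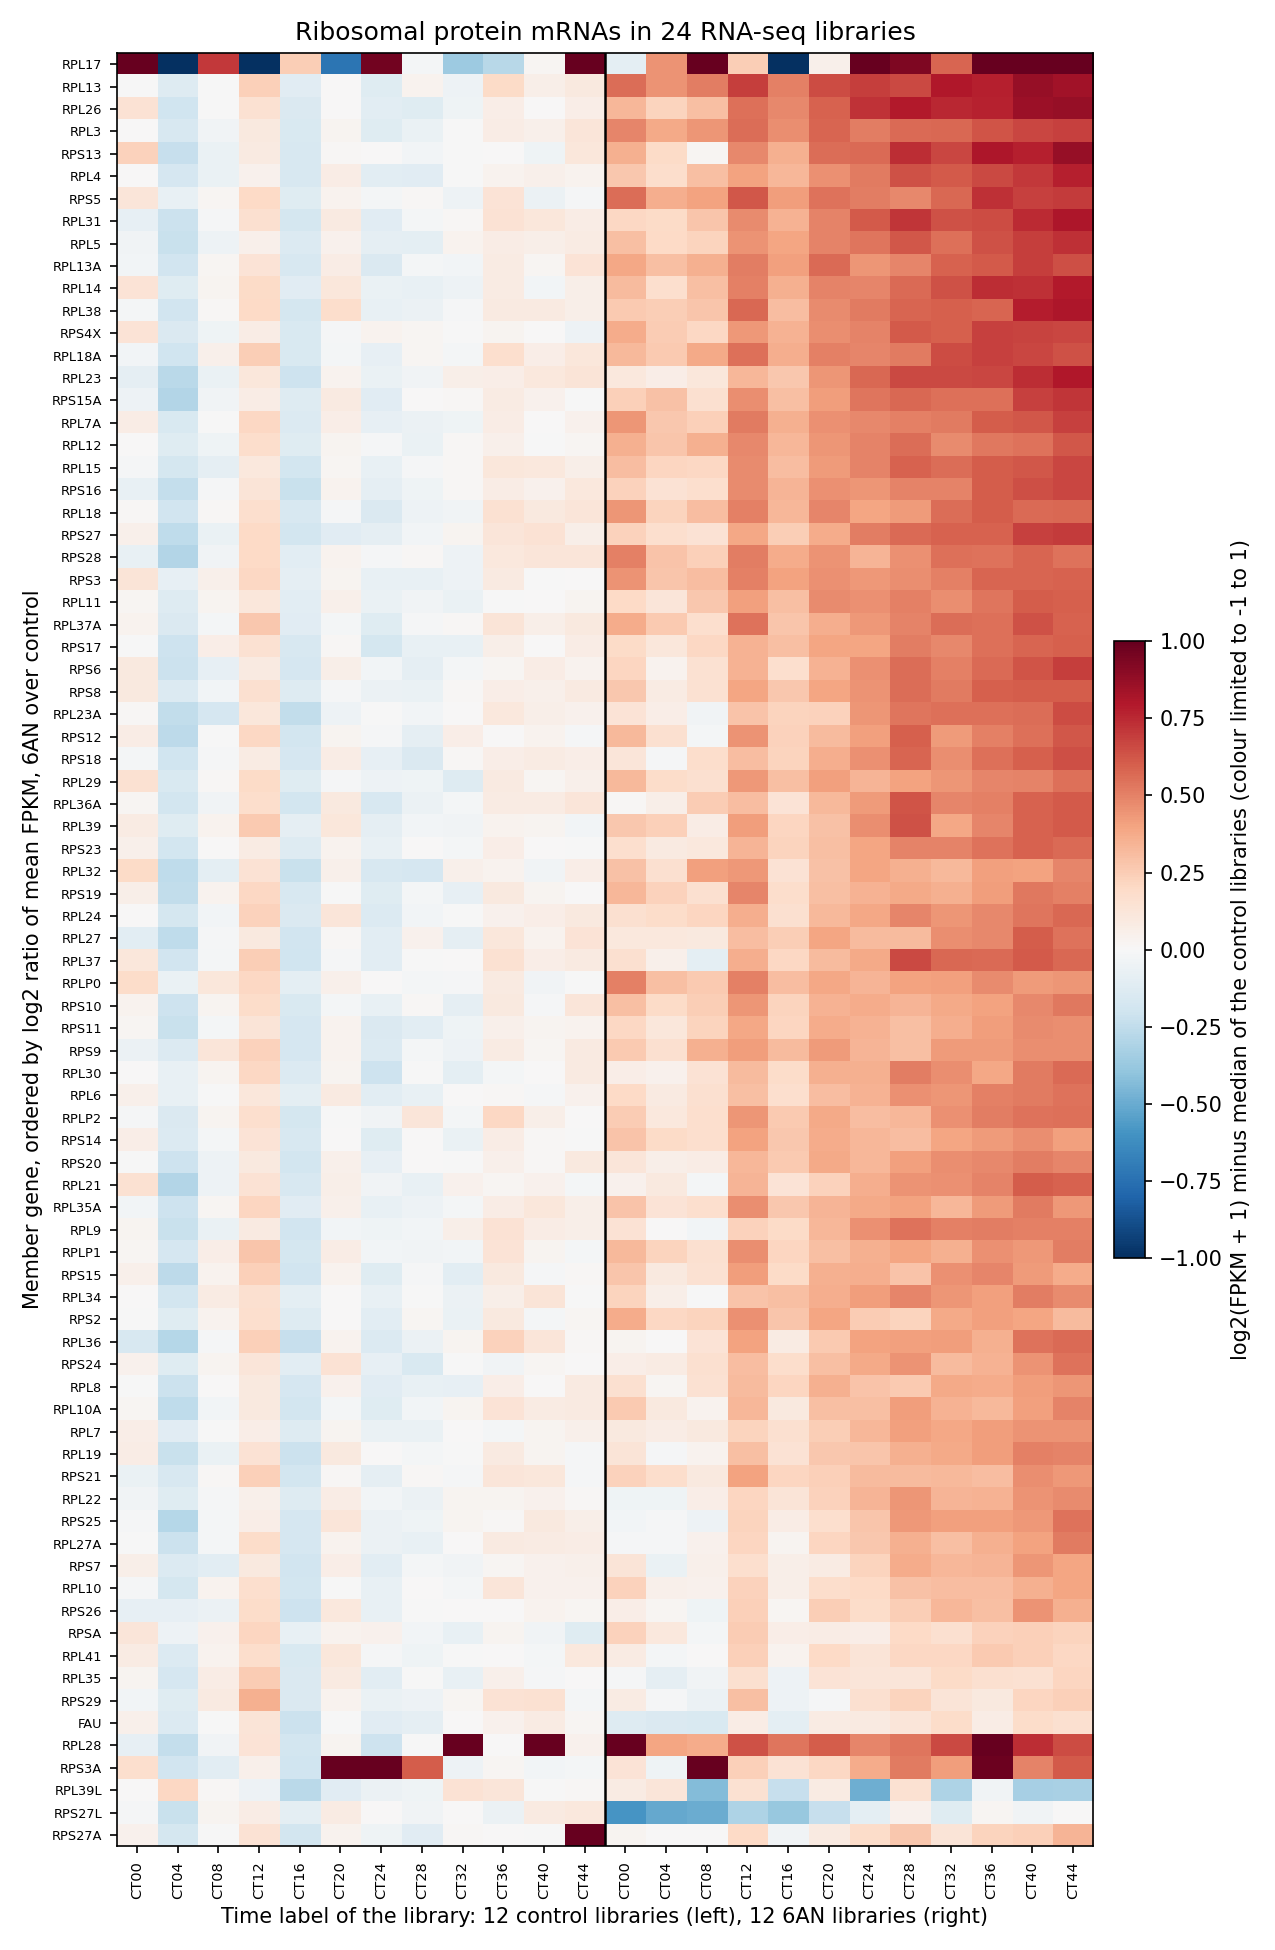
Each row is a member and each column a library, 12 control libraries at left and 12 6AN libraries at right in order of time label; color is log2(FPKM + 1) minus the gene's median in control, limited to -1 and 1. Rows are ordered by the log2 ratio of 6AN over control, from 0.70 for the RPL17 locus at the top to -1.52 for the RPS27A locus at the bottom, and most rows deepen in red toward CT44 of 6AN.

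RPL13 had the highest ratio after the RPL17 locus. Its values were 319 to 413 FPKM in control (mean 355 ± 29.5, SD, n = 12) and 477 to 640 in 6AN (mean 558 ± 53.7, n = 12), without overlap and higher in 6AN at 12 of 12 labels. The log2 ratio was 0.65, and the SD of the difference over the labels was 0.13. RPL26, a large subunit protein also known to bind the mRNA of p53, spanned 975 to 1243 FPKM in control (median 1121) and 1305 to 2053 in 6AN (median 1768). Its log2 ratio was 0.63 (SD over labels 0.24), again with no overlap.

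The members also differed widely in level, as FPKM allows genes to be compared per length. By the mean over the 24 libraries, the RPL17 locus was highest at 7209 FPKM, followed by RPL41 at 6265 and RPLP1 at 5392. RPL17, one of the erratic loci described below, spanned 1132 to 12263 FPKM in control (median 4621) and 1584 to 17676 in 6AN (median 7880), overlapping both, and in control its median was below those of RPL41 (5903) and RPLP1 (4711). RPL41 spanned 5318 to 6654 FPKM in control and 5839 to 7094 in 6AN, and RPLP1 4175 to 5719 and 5267 to 6706, so the ranges of these neighbors overlapped within each condition. RPL39L was lowest at 35.3 FPKM, below RPL22 at 198 and RPL27A at 203. RPL22 spanned 165 to 191 FPKM in control and 176 to 251 in 6AN, and RPL27A 161 to 213 and 185 to 268, and these neighbors overlapped too. Both rose in 6AN, by 0.29 ± 0.03 for RPL22 (limma adjusted p = 0.000120) and 0.28 ± 0.03 log2 per 24 hr for RPL27A (adjusted p = 0.000121). No trend was called for RPL39L (-0.16) at the low end or for RPL41 (0.12) and RPLP1 (0.13) at the high end, while RPS27, with a mean of 3977 FPKM, rose by 0.32.

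RPS27L and RPL39L are paralogs of RPS27 and RPL39, and their ratio to the partner within a library does not depend on the scaling of the tables. RPS27L spanned 196 to 246 FPKM in control (median 229) and 152 to 236 in 6AN (median 203), and it was lower in 6AN at 10 of 12 labels. RPS27 spanned 2833 to 3880 FPKM in control (median 3375) and 3726 to 5488 in 6AN (median 4612). The level of RPS27L was 6.04% to 7.77% of that of RPS27 in control and 3.87% to 4.75% in 6AN, without overlap. The ratio was lower in 6AN by 0.66 on the log2 scale (mean difference -0.66, SD 0.12, lower at 12 of 12 labels; exact two-sided sign-flip permutation over labels, p = 0.000488, the smallest that 12 labels can give, adjusted over 2 pairs 0.000977). With 1 library per label and condition, this p-value, like that of RPL39L below, measures spread over labels. It cannot separate 6AN from a difference between the culture series. RPS27L nevertheless rose within 6AN, from 152 FPKM at CT00 to 230 at CT44, with a slope of 0.35 ± 0.04 (limma adjusted p = 0.000188).

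RPL39L spanned 30.3 to 42.4 FPKM in control (median 36.7) and 25.9 to 41.0 in 6AN (median 33.5), with overlapping ranges. RPL39, a small protein of the exit tunnel, spanned 902 to 1174 FPKM in control and 1030 to 1525 in 6AN. The ratio of RPL39L to RPL39 was 3.10% to 4.80% in control and 1.99% to 3.55% in 6AN. It was lower in 6AN at 10 of 12 labels (mean log2 difference -0.50, SD 0.37; exact sign-flip permutation p = 0.00195, adjusted 0.00195). RPL3 and RPL10 could not be paired in this way, since RPL3L and RPL10L are no members.

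**Figure D4:**
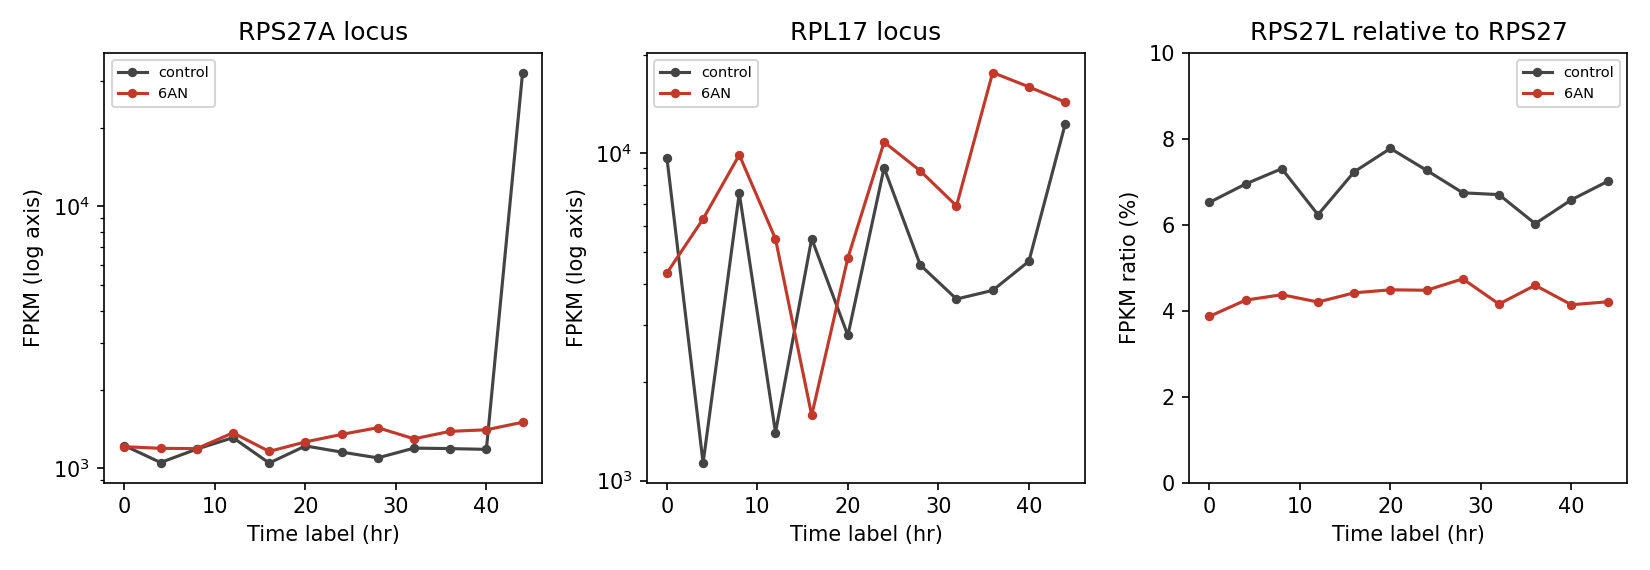
FPKM by time label for the RPS27A locus and the RPL17 locus (log axes) and the FPKM of RPS27L as a percentage of that of RPS27, with control in grey and 6AN in red, 1 library per point. RPS27A stands at 32438 FPKM in the CT44 control library alone, RPL17 swings between 1132 and 17676 FPKM, and the RPS27L percentage lies lower in 6AN at every label.

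The values of 4 loci were erratic between libraries. Each locus carries the name of a small RNA as well as of the ribosomal protein gene: RPL17 with SNORD58B, RPS3A with SNORD73A, RPL28 with MIR6805 and RPS27A with MIR4426. Around a straight line in time, the control libraries had a residual SD of 1.28 log2 for RPS27A, 1.07 for RPL17, 0.92 for RPL28 and 0.76 for RPS3A, against a median of 0.11 over the members. RPS27A, a ribosomal protein made as a fusion to ubiquitin, was at 1048 to 1310 FPKM in 11 control libraries and at 32438 in the library of CT44. In 6AN it spanned 1161 to 1500. The log2 ratio of -1.52 therefore rested on that single library and was 0.15 without CT44. RPS3A reached 4834 FPKM at CT20 in control beside a median of 1049, and RPL28 reached 3184 at CT32 and 3444 at CT40 beside a median of 577. The loci of RPL32 with SNORA7A, RPL36A with HNRNPH2 and RPS10 with NUDT3 also hold another name and showed no such jumps. Whether reads of the small RNAs enter the values was not tested. Without the 4 loci, the median log2 ratio of the members was 0.36 and 66 rose in 6AN.

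RefSeq places a snoRNA gene inside the locus of 28 members, as these introns are common hosts of snoRNAs. The median log2 ratio was 0.40 for these 28 and 0.35 for the other 52, and 23 and 44 of them rose in 6AN. Reads from processed pseudogenes of ribosomal protein genes, which are numerous in the genome, may also be shared with the members, and how the counting assigned them is not given in the sources used here.

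The third question was rhythmicity. It was tested with a limma F test of 24 hr cosine and sine terms beside a linear trend. No member passed it in either condition, whether at an adjusted p of 0.05 or at an unadjusted p of 0.01 or of 0.05. The period was fixed at 24 hr in both conditions, so rhythms of other lengths were not tested. According to the paper, inhibiting the pentose phosphate pathway lengthened the period of rhythms in human cells. A longer rhythm in 6AN could therefore be missed. Over all loci, 0.00715% (control) and 0% (6AN) passed the adjusted threshold, 1.42% and 1.99% an unadjusted p of 0.01, and 6.79% and 7.82% an unadjusted p of 0.05. Almost no locus passed the adjusted threshold, so it cannot set the members apart from other loci. The smallest unadjusted p-values among members were those of RPL39L (0.0779), RPL36 (0.105) and RPS29 (0.138) in control by this limma test, and of RPS9 (0.192), RPL36A (0.214) and RPS2 (0.227) in 6AN. The median fitted amplitude was 0.06 log2 in control and 0.03 in 6AN. Leaving out CT16 in control gave 2 members at an unadjusted p of 0.01.

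The members did move together from library to library. After a linear trend was removed, the median correlation between 2 members over the 12 libraries was 0.83 in control and 0.60 in 6AN (3160 pairs, which share libraries and depth). RPL17, RPL39L, RPL28, RPS3A and RPS27A stood apart in control, with median correlations to the others of -0.06 to 0.11, whereas that of RPS4X, the next, was 0.65. Several of the labels that stood out did so in both conditions. At CT12, 77 of 80 members were above their own trend in control and 77 in 6AN, with median deviations of 0.18 and 0.11 log2. At CT16 only 1 member was above its trend in control and 1 in 6AN (-0.14 and -0.08), and at CT04 only 2 and 6 were (-0.14 and -0.07). Other labels went apart, most of all CT08, with 62 members above their trend in control and 6 in 6AN. The counts in control and 6AN were 7 and 42 at CT24, 14 and 51 at CT28, and 67 and 38 at CT36. Over the 12 labels, the median deviations of the conditions had a Pearson r of 0.72 and a Spearman rho of 0.50. Without the 2 farthest control labels, r was 0.37. The median of all expressed loci stayed within 0.02 log2 of its mean in every library. The relative depth at CT04, CT12 and CT16 was 0.58, 1.02 and 1.22 in control and 1.28, 1.47 and 0.97 in 6AN. The summed FPKM of a library, which includes the members, was 992047, 1087473 and 975321 in control at these labels. In 6AN it was 1080809, 1227264 and 1133524. The sum was thus low at CT04 and CT16 in control, and in 6AN it was lowest at CT04 and lower at CT16 than at CT12. The part of depth and scaling in these deviations was not tested.

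Genes that work beside the ribosome were counted for comparison. Of 19 elongation and other translation genes, 14 rose in 6AN and none fell, and none rose or fell in control. The list also held NPM1, NAP1L1 and HNRNPA1, which are not elongation factors, with log2 ratios of 0.44, 0.63 and -0.17. NPM1 was not counted among the ribosome biogenesis genes below. The median of the 19 log2 ratios, 6AN over control, was 0.44, and 11 of the 19 genes had all 6AN libraries above all control libraries. EEF2, the translocation factor of elongation, had the highest ratio, with 637 to 752 FPKM in control (median 673) and 1246 to 1503 in 6AN (median 1395), a log2 ratio of 1.03. EEF1D followed at 0.65, while HNRNPA1 was at -0.17 and EEF1B2 at 0.11. Of 8 noncoding snoRNA host genes, 6 rose in 6AN and none fell, and their log2 ratios had a median of 0.72. SNHG5 spanned 46.5 to 75.3 FPKM in control and 94.2 to 157 in 6AN, and EPB41L4A-AS1 had medians of 14.1 and 37.9 FPKM, both without overlap.

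**Figure D5:**
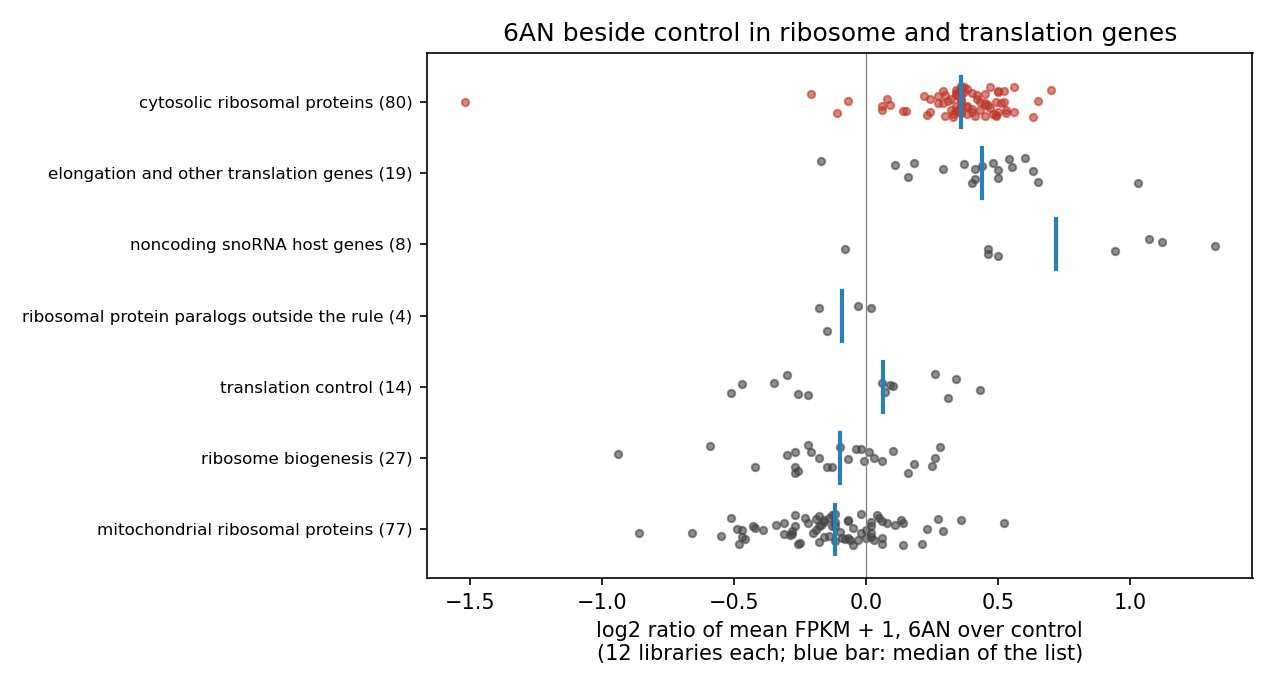
Log2 ratio of mean FPKM + 1, 6AN over control, for each gene of the cytosolic ribosomal proteins (red) and 6 other lists (grey), with the number of genes in parentheses and the median as a blue bar. The medians are 0.36 for the cytosolic ribosomal proteins, 0.44 for elongation and other translation genes and 0.72 for snoRNA hosts, and between -0.12 and 0.06 for the other 4 lists.

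The genes that build the ribosome had other values. Of 27 ribosome biogenesis genes, 6 rose and 2 fell in 6AN, and 3 fell in control. Their median log2 ratio was -0.10, from -0.94 for NOP56 to 0.28 for the polymerase I factor RRN3. NOP56 was uneven between libraries, at 80.6 to 813 FPKM in control with a median of 95.9. NOP58, a core protein of box C/D snoRNPs, was next lowest at -0.59. None of the 27 genes had all 6AN libraries above all control libraries. Of 77 mitochondrial ribosomal proteins, which serve the separate ribosome of the mitochondrion, 12 rose and 3 fell in 6AN, the median log2 ratio was -0.12 and 2 had all 6AN libraries above control. The median slope in 6AN was 0.05 for these, against 0.23 for the cytosolic members. Of 14 translation control genes, 3 rose and 2 fell in 6AN, and the median of their log2 ratios was 0.06. EIF4E, the cap-binding protein, was at -0.51 and EIF4EBP1, its inhibitor, at 0.34. Of 4 further ribosomal protein paralogs (RPL22L1, RPL26L1, RPL36AL and RPL7L1), 2 rose in 6AN and none fell, and their median ratio was -0.09.

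The last question was whether the clock activators BMAL1 and CLOCK bound near these genes. None of the 147 sites shared by both factors in control and of the 439 in 6AN was assigned to a member, and such sites were assigned to only 0.866% and 2.40% of all expressed loci, so few members could be expected among them. A merged peak of either factor lay within 1000 bp of 23 member loci, or 28.7%, against 27.3% of all expressed loci, and within 5000 bp of 25, against 29.7%. By library, BMAL1 peaks lay near 9 members in control (13.1% of all loci) and 16 in 6AN (18.1%), and CLOCK peaks near none in control (1.90%) and 4 in 6AN (8.09%). Peaks of at least the median score of a library lay near 10 members, against 12.8% of all loci. Of the 26 peaks within 1000 bp, 23 were called in 1 library and 3 in 2, and none was called for both factors in both conditions. Farther out, a peak 4099 bp from RPL18 at chr19:48634505-48634744 was called in all 4 libraries, with a mean score of 109, and a peak 4659 bp from RPL24 was called for both factors in 6AN, with a score of 16.2. The scores of the peaks within 1000 bp had a median of 17.1 and a maximum of 31.0, where all 4001 merged peaks had a median of 18.5 and a maximum of 935. RPS29 had a BMAL1 peak called in control and 6AN at chr14:49586371-49586574, with a mean score of 28.4. RPS28, whose window above holds the E-box CACGTG, had a CLOCK peak called in 6AN alone at chr19:8321440-8321640, with a score of 15.4. The E-box was present in the 300 bases around the start (250 before to 50 after) of 4 of 64 members, or 6.25%, against 12.5% of other expressed genes and 8.77% of all genes in the table. With 1 library for each factor and condition, the peak counts have no replicate check.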

How the data were processed

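The authors aligned rRNA-depleted single-end RNA-seq reads with TopHat and Bowtie to hg38, and made one Cufflinks gene table of FPKM for each condition, normalized separately. The deposited ChIP-seq files hold HOMER peaks with a score for each peak and signal at shared sites, from Bowtie2 alignments, and the signal was not analyzed here. Tool versions are not given in the sources used here.

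Here log2(FPKM + 1) was fitted with limma 3.58.1 (R 4.3.3), with an intercept, time and, for rhythms, 24 hr cosine and sine terms, within each table over all loci with a mean of at least 1 FPKM. Each condition had 12 libraries, 1 per time label. Nothing in the labels separates cultures, so p-values measure spread around the fitted course, or over labels for the paralog ratios. This spread may be technical. The script was tested on simulated data. Genes were named by level, ratio, the smallest p-values and a fixed list. Members and lists were chosen with earlier results of these data known. One gene of the comparison lists is not reported here and was left out of their counts. Alternatives were another pseudocount, other filters, library centring and leaving out each label. A peak counted as near within 1000 bp. Confidence intervals for depth were not possible from FPKM.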

Additional observations from a re-analysis of the deposited data

Results flagged for a closer look

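The trend over time differed between 6AN and control for 27 of the 80 members (single limma fit over both tables, adjusted p of 0.05 or less), all steeper upward in 6AN. Among the genes named above, the difference in log2 per 24 hr was 0.34 for RPL26, 0.29 for RPL23, 0.28 for RPS27L and 0.28 for RPS6. It was 0.26 for RPS23, RPL36A and RPL39, and 0.25 for RPL4. It was 0.24 for RPL11 and RPL22, 0.20 for RPL27A and 0.18 for RPL5. The fit was chosen after the values were seen.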

How the results depend on the processing

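Each main result was recomputed under each alternative setting, and 232 of 237 values were classed as the same. Many of these values are counts of members, which could move and still be classed so, as from 27 to 19. Others are counts of 0 that stayed at 0, among them rhythms at the adjusted threshold, which almost no locus passed. The number of members steeper upward in 6AN was 27 and became 15 with no filter on low values; leaving out each time label gave 15 to 31. Members with a rhythm in control at an unadjusted p of 0.01 were 0, and 0 to 2 when each label was left out. Rising members in 6AN were 67, and 58 to 71 under all alternatives. The median correlation between members in 6AN was 0.60, or 0.87 with the linear trend kept in. Peaks of at least the median score lay near 10 members in place of 23, since fewer peaks enter. Among the named genes, the ratio of RPS27A changed sign: it was -1.52, and leaving out each label gave -1.63 to 0.15, the latter without CT44, whose control library holds the single high value. The slope of RPS9 in 6AN lost its call in 7 repeats, and those of RPLP1, RPL41 and RPL17 gained one in 5 repeats in all. The conditions share time labels, with 1 library each, and no other replicate numbers. Joining the libraries by label took the members steeper upward in 6AN from 27 to 40, and both paralog ratios, joined by label in the report, kept their calls when not joined. Absolute depth was unknown, so what it limits could not be measured.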

Other observations

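The median log2 ratio of 6AN over control was 0.36 for the 47 members with a pyrimidine tract at the annotated start and 0.35 for the 17 without, and 40 and 13 of them rose in 6AN. Of these 17, however, 11 had such a tract beginning within 10 bases, so only 6 members had neither, with a median log2 ratio of 0.35 and 4 of them rising, and these windows hardly separate members by the tract. Of 651 other expressed genes with such a tract (loci with a single name), 121 rose in 6AN, or 18.6%, and their median log2 ratio was 0.02. Of 8825 without it, 11.9% rose, and the median was -0.06. The motif CCGGAAG, on either strand of the same 300 bases, was present in 23 of 64 members (35.9%) and in 2213 of 10042 other expressed genes. These shares are descriptions of the annotated windows.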
